A study of Fukomys damarensis and Heterocephalus glaber and Mus musculus with 160 samples.

Results

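The largest clusters of regions marked by acetylated histone H3 lysine 27 (H3K27ac) were taken from liver and heart of 4 rodents: mouse, guinea pig, naked and Damaraland mole-rat. In each species and tissue, H3K27ac regions present in at least 2 animals were kept when they held no trimethylated lysine 4 (H3K4me3), and neighbours at most 12.5 kb apart were joined into clusters. The 300 clusters with the most H3K27ac bases of each of the 8 sets were the members, 2400 of 138514 clusters. They were thus chosen by their own-tissue H3K27ac, so their size and their own-tissue H3K27ac are described and not tested.

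Chromatin immunoprecipitation sequencing of H3K27ac, H3K4me3 and H3K4me1 gave 99 peak lists, and 17 further lists came from transcription factors in the mole-rats. All animals were wild-type adults: naked mole-rats of 13 to 17 months, Damaraland mole-rats with an estimated age of 36 to 48 months, guinea pigs of 2.3 months and C57BL/6J mice of 2 months. All were male except DMR6, a female Damaraland mole-rat. Each library came from 1 animal, except a mouse heart pool of 3 animals that counted as 1 replicate, and the mouse livers and hearts came from different animals. The samples were whole tissue, so a mark carried by fewer cells and a mark that is weaker in each cell cannot be told apart.

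H3K27ac is laid down by acetyltransferases at active promoters and enhancers, H3K4me3 sits at promoters, and H3K4me1 spreads over enhancers that are active or primed. Long runs of neighbouring H3K27ac regions are often called super-enhancers or stretch enhancers and are known for lying near genes that define a cell type. The usual definition ranks them by signal, whereas here they were ranked by the number of marked bases. CEBPA, a leucine zipper protein, FOXA1, a forkhead pioneer factor, HNF4A, a nuclear receptor, HNF6, a cut homeodomain protein, and RXRA, the dimer partner of many nuclear receptors, are known regulators of hepatocytes. TBX5 is a T-box factor needed for heart development.

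Histone lists held between 14782 and 253457 peaks, in groups of 2 to 6 libraries, and read depth was unknown. The longest list was liver H3K4me3 of NMR30. The shortest H3K4me1 lists in heart were those of the mouse pool (20489 peaks), DMR11 (32893 peaks) and NMR32 (42957 peaks), and results that use them are given library by library. The heart H3K4me1 lists of DMR1 and of mouse 33017 bear an extra mark in their names for which the labels give no reason, so these lists may have been made from another read depth than the rest. No annotation of the builds used by the lists was used here, so clusters are named by position (builds HetGla_1.0, DMR_v1.0, Cavpor3.0 and GRCm38, positions counted from 1) and no gene is assigned.

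The members were few but held a large part of the marked sequence. They made up between 1.45% (Damaraland mole-rat liver) and 2.25% (mouse liver) of the clusters and held between 13.4% (Damaraland mole-rat liver) and 19.1% (naked mole-rat heart) of all H3K27ac bases without H3K4me3. The median member held 21666 bases in liver and 27588 in heart of the naked mole-rat, and 25490 and 30836 in the Damaraland mole-rat. The guinea pig had the opposite order, with 32248 bases in liver and 24546 in heart. In the mouse the medians were 22803 and 29647. Heart members were thus the larger in 3 of the 4 species. The H3K27ac lists also differed between tissues. Mouse heart had 6 lists of up to 107890 peaks and mouse liver 4 of up to 62480, while naked mole-rat heart had 3 lists and its liver 5. With 1 animal left out, the lowest heart medians were 22432.5 (naked mole-rat), 25692 (Damaraland mole-rat) and 23296.5 (mouse). The part of the lists in this order was not tested. A remaining cluster held a median of 1236 to 1924 bases over the 8 sets.

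Sizes fell steeply over the first ranks and then slowly, with no gap at the 300th cluster. The last member and the first cluster outside held 16247 and 16184 bases in naked mole-rat liver, 20542 and 20526 in naked mole-rat heart, and 19474 and 19430 in Damaraland mole-rat liver. They held 23328 and 23323 in Damaraland mole-rat heart, 25152 and 25148 in guinea pig liver and 18432 and 18402 in guinea pig heart. In the mouse they held 16655 and 16613 in liver and 22125 and 22108 in heart. The edge of each set is therefore a matter of less than 100 bases.

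**Figure D1:**
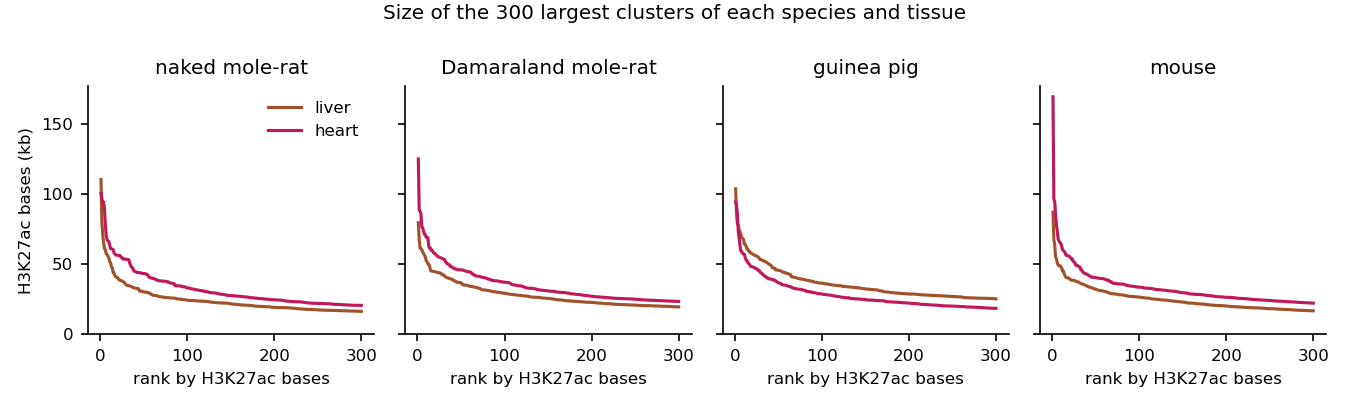
H3K27ac bases (kb) of the 300 members by rank in each species, with liver in brown and heart in pink. The largest members hold 79651 to 169745 bases and the last members 16247 to 25152, and the liver curve lies above the heart curve beyond the first ranks only in the guinea pig.

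Members were built from more regions and from longer ones. They joined a median of 11 (mouse liver) to 19 (Damaraland mole-rat heart) regions, against 2 in the remaining clusters of every set, and none consisted of 1 region. The median joined region was 727.5 bases long in members and 554 in the rest in naked mole-rat liver, and 1342 and 932 in guinea pig liver, the sets with the shortest and the longest regions. H3K27ac covered 38.6% (naked mole-rat liver) to 50.6% (guinea pig liver) of the span of the members, which had a median length of 50964 to 73259 bases. In single libraries the own-tissue H3K27ac peaks covered a median of 54.6% (mouse heart) to 81.9% (guinea pig liver) of member bases. The lowest libraries were 6839 of mouse heart and DMR1 of Damaraland mole-rat heart, with 36.2% and 36.3%. The median deposited fold of the peaks in members was higher than that in the rest in every library, for example 6.75 and 6.42 in NMR30 liver and 5.33 and 5.21 in 6837 of mouse heart.

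The name enhancer was checked against the other marks. The own-tissue H3K4me1 consensus covered 86.0% of member bases in liver and 48.3% in heart of the naked mole-rat. It covered 90.2% and 72.2% in the Damaraland species, while the guinea pig gave 77.6% and 74.2%, and the mouse 74.7% and 72.4%. The remaining clusters lay lower in every set, with 78.9%, 82.2%, 66.6% and 67.9% in liver and 29.2%, 52.1%, 53.5% and 57.8% in heart (same order of species). Naked mole-rat heart was thus the lowest set among members and among the rest, and its 3 H3K4me1 libraries held only 42957 to 110851 peaks. The part of those peak numbers in the low cover was not tested. Joining also carried many members across promoter-type chromatin. An H3K4me3 region lay within the span of 196, 141, 124 and 136 of 300 liver members of naked and Damaraland mole-rat, guinea pig and mouse, where all clusters gave 10.7%, 8.3%, 7.2% and 8%. Of the heart members it was 110, 162, 123 and 131, where all clusters gave 7.22%, 8.82%, 7.07% and 7.86%. Naked mole-rat liver, the set with the most, is also the one with the long H3K4me3 list of NMR30. Per 100 kb of span the members held fewer H3K4me3 regions than the remaining clusters of several regions in all 8 sets, for example 1.04 against 1.72 in naked mole-rat heart and 2.62 against 2.82 in naked mole-rat liver.

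Most members carried some H3K27ac in the other tissue, but seldom along their whole length. At least 1 base lay under the other tissue's H3K27ac in 238, 255, 255 and 253 of 300 liver members of naked and Damaraland mole-rat, guinea pig and mouse, where all clusters gave 34.8%, 41.8%, 41% and 46.7%. The heart members numbered 277, 279, 285 and 276, where all clusters gave 41.6%, 41.2%, 46.3% and 36%. A larger cluster has more bases that can be touched, so the share of bases was measured too. Of all member bases in liver, 33.7%, 38.0%, 26.3% and 35.7% lay under heart H3K27ac in the same order of species, against 23.2%, 27.6%, 23.6% and 31.9% in the remaining clusters. Of member bases in heart, 29.8%, 32.2%, 41.9% and 27.9% lay under liver H3K27ac, against 24.2%, 25.6%, 33.9% and 21.5%. The share was higher in members in all 8 sets.

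Members varied widely among themselves in this respect. The median member had between 17.8% (guinea pig liver) and 41.0% (guinea pig heart) of its bases under the other tissue's H3K27ac, and each set ran from 0 to at least 94.8%. At least 90% of the bases were shared in only 71 of 2400 members, 2.96%, while the remaining clusters reached 12.2%. In the order of species above, the counts were 10, 17, 6 and 14 liver members, where all clusters gave 12%, 15%, 10.5% and 19.4%, and 3, 4, 14 and 3 heart members, where all clusters gave 8.52%, 9.03%, 16% and 6.95%. At the other end, no base lay under the consensus of any of the 3 marks of the other tissue in 180 members, 7.5%. These were 48, 33, 26 and 32 liver members, where all clusters gave 60.1%, 50.3%, 49% and 42.3%. Of the heart members they were 10, 8, 10 and 13, where all clusters gave 45.4%, 45%, 43.9% and 52.5%. Liver members with no base under a heart consensus were thus more numerous than heart members with none under a liver consensus in all 4 species. All clusters had the same order in both mole-rats and the guinea pig, and the opposite order in the mouse. The lists of the tissues also differed in number and length, and their part in this order was not tested. Members joined more regions than the remaining clusters, and a cluster of few regions can more easily lie wholly inside or wholly outside the other tissue's marks. Both counts therefore depend on cluster size, and its part in the differences from the other clusters was not tested.

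**Figure D2:**
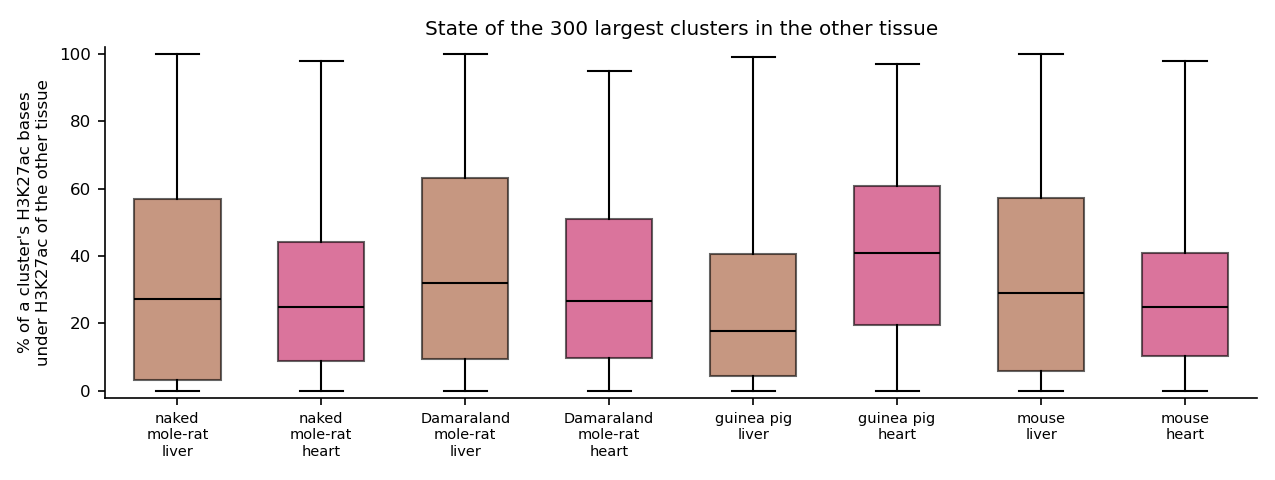
Percentage of each member's H3K27ac bases that lay under H3K27ac of the other tissue, with a box from the lower to the upper quartile, a line at the median and whiskers to the lowest and highest of 300 members. Medians lie between 17.8% and 41.0%, and every set reaches down to 0.

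Some stretches of genome belonged to the largest clusters of both tissues. Of the 300 liver members, 74, 76, 62 and 60 overlapped a heart member (same order of species), which is 24.7%, 25.3%, 20.7% and 20% of the liver lists. The heart members involved were 73, 75, 63 and 58, which is 24.3%, 25%, 21% and 19.3% of the heart lists. Among all clusters 2.42%, 2.6%, 2.38% and 3.99% in liver and 2.45%, 2.24%, 2.95% and 2.56% in heart overlapped a member of the other tissue. The overlap was most frequent in the first 100 ranks, with 26 to 41 members a set, against 12 to 23 in ranks 201 to 300. Any touch of the spans counted as overlap, so a longer cluster can overlap more easily. The part of cluster size in these shares and in the order by rank was not tested.

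The difference between members and remaining clusters was also measured in each H3K27ac library of the other tissue. In naked mole-rat liver clusters the 3 heart libraries covered 27.5%, 30.3% and 30.0% of member bases and 19.6%, 20.8% and 20.2% of the rest, a mean difference of 9.04 points. In Damaraland mole-rat liver clusters it was 7.43 points over 5 heart libraries, with DMR1 lowest at 3.07 points. The mouse liver clusters gave the smallest mean, 1.61 points over 6 heart libraries, from 0.196 to 3.91 points, and the guinea pig liver clusters gave 2.47 points over 3 libraries. Heart clusters gave 4.21, 5.08, 7.07 and 5.21 points in naked and Damaraland mole-rat, guinea pig and mouse. Members were the higher in each of the 34 library comparisons. No set passed the two-sided exact sign-flip test over libraries after Benjamini-Hochberg adjustment over 8 comparisons (lowest adjusted p = 0.125), and with 3 to 5 libraries a set could not go below an unadjusted p of 0.0625. Only the mouse liver clusters reached an unadjusted p under 0.05 (exact sign-flip p = 0.03125). This direction depended on leaving out promoter regions: where regions with H3K4me3 were kept, 5 of the 8 differences turned negative.

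H3K4me1 was not used to choose the members, and each of its libraries covered more of the liver members in liver than in heart. In the naked mole-rat the 5 liver libraries covered 60.3%, 63.2%, 69.2%, 70.5% and 72.4% of the bases of liver members, and the 3 heart libraries 12.5%, 19.2% and 31.3%. In the Damaraland mole-rat the 5 liver libraries covered 55.0%, 64.0%, 73.3%, 74.5% and 85.8%, and the 5 heart libraries 8.99%, 19.5%, 22.0%, 28.0% and 32.7%. In the guinea pig the values were 61.9%, 68.9% and 74.3% against 23.6%, 23.8% and 28.2%. In the mouse they were 49.5%, 55.2%, 60.9% and 63.1% against 5.94%, 23.4%, 25.3%, 30.2% and 38.0%. The liver and heart libraries did not overlap in any species.

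The differences in liver members were 46.1, 48.3, 43.2 and 32.6 points in naked and Damaraland mole-rat, guinea pig and mouse. In the naked mole-rat the mean was 67.1% ± 5.16 (SD, n = 5) in liver and 21.0% ± 9.52 (SD, n = 3) in heart, with an adjusted p of 0.0476 in the two-sided exact permutation test over libraries (8 comparisons). The Damaraland mole-rat and the mouse both had an adjusted p of 0.0317 by the same exact test. In the guinea pig 3 libraries against 3 could not go below an exact p of 0.1 (adjusted p = 0.133). Livers and hearts of the same animals were then exchanged within the animal (the replicate block). The differences were 44.3 points in 3 naked mole-rats and 46.6 points in 4 Damaraland mole-rats, and such small numbers of pairs cannot pass (exact permutation, adjusted p = 0.300 in both). Within the library series that the library names show, they were 43.1, 45.1 and 35.2 points in naked mole-rat, Damaraland mole-rat and mouse (exact permutation, adjusted p = 0.133, 0.08 and 0.133). The members were chosen by their liver H3K27ac, and the remaining liver clusters, made from the same kind of region, gave gaps of 45.9, 46.6, 38.4 and 31.0 points in the 4 species. The gap is therefore a description of liver clusters, and its p-values support nothing about the members in particular.

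Heart members showed a smaller gap in H3K4me1 and more spread. In the naked mole-rat the 3 heart libraries covered 22.1% (NMR32), 34.3% (NMR31) and 52.9% (NMR30), and the 5 liver libraries 25.1%, 25.2%, 29.6%, 30.1% and 33.2%, so the groups overlapped. In the Damaraland mole-rat heart libraries covered 16.6% (DMR11), 41.8%, 47.0% (DMR1), 53.8% and 57.9% and liver libraries 24.4% to 42.0%. Without DMR11, whose list held 32893 peaks, the groups still overlapped at 41.8% and 42.0%. In the mouse the pool covered 9.27% and the other heart libraries 41.9%, 45.6%, 54.7% and 67.1% (33017), while liver libraries covered 18.4%, 20.1%, 21.1% and 28.6%. The pool was the only mouse heart library below the liver range. In the guinea pig the groups did not overlap, with 60.9%, 61.0% and 67.2% in heart against 30.2%, 31.0% and 41.0% in liver.

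The differences in heart members were 7.80, 11.8, 29.0 and 21.7 points in naked and Damaraland mole-rat, guinea pig and mouse, and none passed (exact permutation, adjusted p = 0.304, 0.200, 0.133 and 0.133). Leaving out the heart of 1 animal moved these values. All histone lists of that heart were left out and the members were built again. Without NMR30 of heart, whose H3K4me1 list was the longest of its group, the naked mole-rat difference was -0.413 points (exact permutation, adjusted p = 1), and without NMR32 it was 16.3 points. Without DMR11 the Damaraland difference was 19.4 points (exact permutation, adjusted p = 0.0357). The remaining heart clusters gave 2.87, 5.51, 18.0 and 14.7 points, also in favour of the tissue in which the clusters were chosen.

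**Figure D3:**
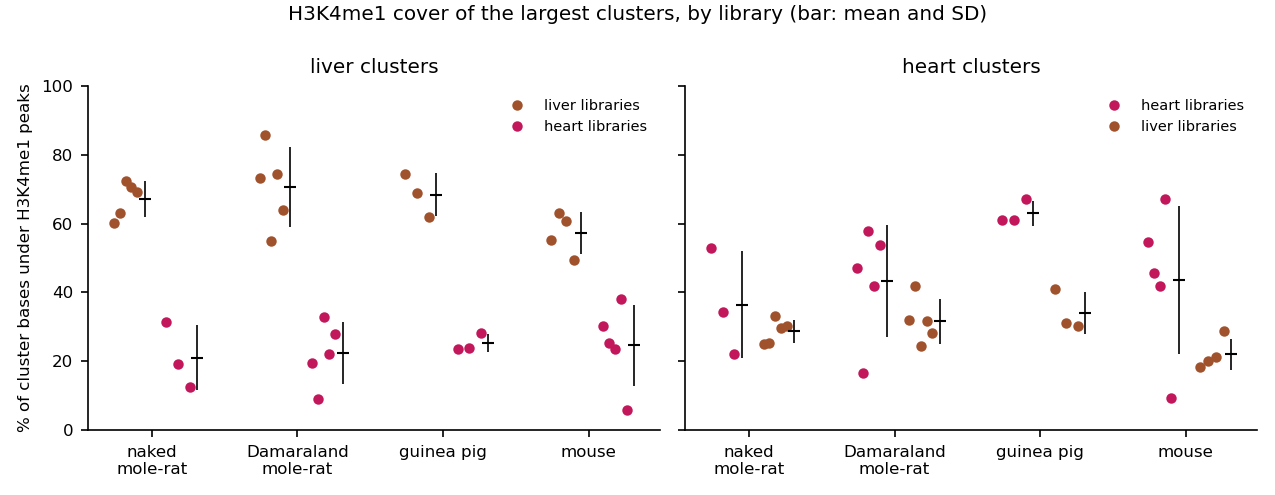
Percentage of member bases under H3K4me1 peaks, 1 point per library, for liver members (left) and heart members (right), with liver libraries in brown, heart libraries in pink and a bar for mean and SD beside each group. Liver libraries lie above heart libraries on the left in every species, and on the right the groups overlap in both mole-rats and the mouse.

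H3K4me1 covered more of the members than of the remaining clusters in every library of both tissues. The excess over the rest was 1.89 to 12.2 points in the 33 library values for liver clusters (median 8.17) and 3.50 to 20.4 points in the 33 for heart clusters (median 8.45). In heart members the excess was larger in heart libraries than in liver libraries by 4.93, 6.25, 11.01 and 6.97 points in naked and Damaraland mole-rat, guinea pig and mouse. In liver members the same difference was only 0.25, 1.72, 4.82 and 1.59 points. None of the 8 passed after adjustment (two-sided exact permutation over libraries, lowest adjusted p = 0.0847), and 3, all in heart, had an unadjusted p under 0.05. With equal numbers of peaks taken from every library, 6 of 8 passed (exact permutation, adjusted p = 0.0286 to 0.0317) with differences of 5.15 to 9.08 points. The others were the guinea pig sets, which could not pass in either setting, as 3 libraries against 3 cannot go below an exact permutation p of 0.1. When the share of regions touched was measured in place of bases, the difference turned negative in the liver sets of all 4 species, and in both mole-rats it passed in that opposite direction (-7.99 and -5.38 points, exact permutation, adjusted p = 0.0357 and 0.0317). These results thus depend on how cover is measured.

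The liver factors had peaks in nearly all liver members. A member of naked mole-rat liver held a median of 6 consensus regions of the 4 factors (CEBPA, FOXA1, HNF4A and RXRA, each in 2 animals), with a range of 0 to 23, and 7 members held none, where all clusters gave 64.7%. In Damaraland mole-rat liver the 3 factors with 2 animals (CEBPA, FOXA1 and RXRA) gave a median of 7, a range of 0 to 24, and 7 members with none, where all clusters gave 62.4%. At least 1 peak of every liver factor, in either animal, was found in 247 of 300 members in the naked mole-rat (all clusters 7.95%). In the Damaraland mole-rat, where HNF6 was the fifth factor, it was 222 of 300 (all clusters 7.81%), and HNF4A and HNF6 had 1 library each. Where both libraries of every factor had to hold a peak, 85 of 300 naked mole-rat members were left (remaining clusters 0.822%). For the 3 Damaraland factors with 2 animals it was 207 of 300 (remaining clusters 5.33%). Single libraries ranged from HNF4A of NMR30, with a peak in 110 members (all clusters 5.21%), to RXRA of DMR4, with a peak in all 300 (all clusters 47.1%). Members hold far more bases than other clusters, so the density is needed beside these counts.

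The density of factor peaks per base did not follow these counts. In naked mole-rat liver, CEBPA gave 21.1 and 16.6 peaks per 100 kb of H3K27ac in members (NMR30 and NMR35) against 24.1 and 19.5 in the rest, and FOXA1 gave 7.54 and 11.7 against 8.26 and 13.5. RXRA was denser in members, with 7.83 and 15.5 against 7.26 and 14.0, and HNF4A gave 2.29 and 9.72 against 2.30 and 9.51. The mean log2 ratio was -0.06 ± 0.15 (SD, n = 8 libraries), lower in 5 of 8 libraries, and did not pass (two-sided exact sign-flip over libraries, adjusted p = 0.289 over 4 comparisons). The 2 libraries of a factor lay on the same side for CEBPA and FOXA1 (lower) and for RXRA (higher).

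In Damaraland mole-rat liver, members had fewer peaks per base in 8 of 8 libraries. HNF6 gave 7.02 peaks per 100 kb in members and 8.96 in the rest, and FOXA1 of DMR1 gave 7.20 and 9.15, the largest differences. RXRA was nearly level, with 13.0 and 28.7 (DMR1 and DMR4) against 13.3 and 30.1. CEBPA gave 10.0 and 26.0 against 12.2 and 28.7, and HNF4A of DMR4 gave 16.2 against 17.5. The mean log2 ratio was -0.18 ± 0.13 (SD, n = 8 libraries), which passed (exact sign-flip, adjusted p = 0.0104). In both mole-rats the bases that divide the peak counts are those by which the members were chosen. The part of that choice in the lower density was not tested, so the p-value is no support for a trait of the members. The libraries came from only 2 animals, with means of -0.25 in DMR1 and -0.10 in DMR4, so the test speaks of libraries and not of animals. The call was lost with equal numbers of peaks (-0.18, exact sign-flip, adjusted p = 0.0521) when members were ranked by bases times fold (-0.0052, adjusted p = 0.914) and with H3K4me3 regions kept (-0.079, adjusted p = 0.195). Measured as the share of clusters with a peak, which grows with cluster size, the log2 ratio was 1.75 and passed in the opposite direction (exact sign-flip, adjusted p = 0.0104). Counted per joined region in place of per base, members held more peaks, with a median of 0.208 per region over libraries against 0.133 in the rest, and their regions were also longer. The space between the joined regions held fewer peaks, with a median of 2.92 per 100 kb against 11.5 inside the regions.

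Liver factor peaks were denser in liver members than in heart members of the same species in every library. Among naked mole-rat libraries the log2 ratio ran from 0.40 (HNF4A of NMR30) to 1.31 (FOXA1 of NMR35), with a mean of 0.97 ± 0.27 (SD, n = 8 libraries). In the Damaraland mole-rat it ran from 0.96 (HNF4A of DMR4) to 1.71 (FOXA1 of DMR1), with a mean of 1.33 ± 0.24 (SD, n = 8 libraries). The two-sided exact sign-flip test gave an adjusted p of 0.0104 in both, with 8 of 8 libraries in 1 direction, but in each species the 8 libraries came from only 2 animals, so it speaks of libraries and not of animals. The clusters of each tissue were also chosen by that tissue's H3K27ac, and the remaining clusters gave log2 ratios of 1.10 ± 0.35 (naked mole-rat) and 1.55 ± 0.23 (Damaraland mole-rat, SD, n = 8 libraries each), with both means above those of the members. The ratio thus describes liver against heart clusters and is not particular to the largest. By animal the means were 0.87 in NMR30, 1.07 in NMR35, 1.43 in DMR1 and 1.23 in DMR4. The lowest value belonged to the HNF4A library of NMR30, which had the fewest peaks in naked mole-rat members, 169 in liver and 169 in heart.

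**Figure D4:**
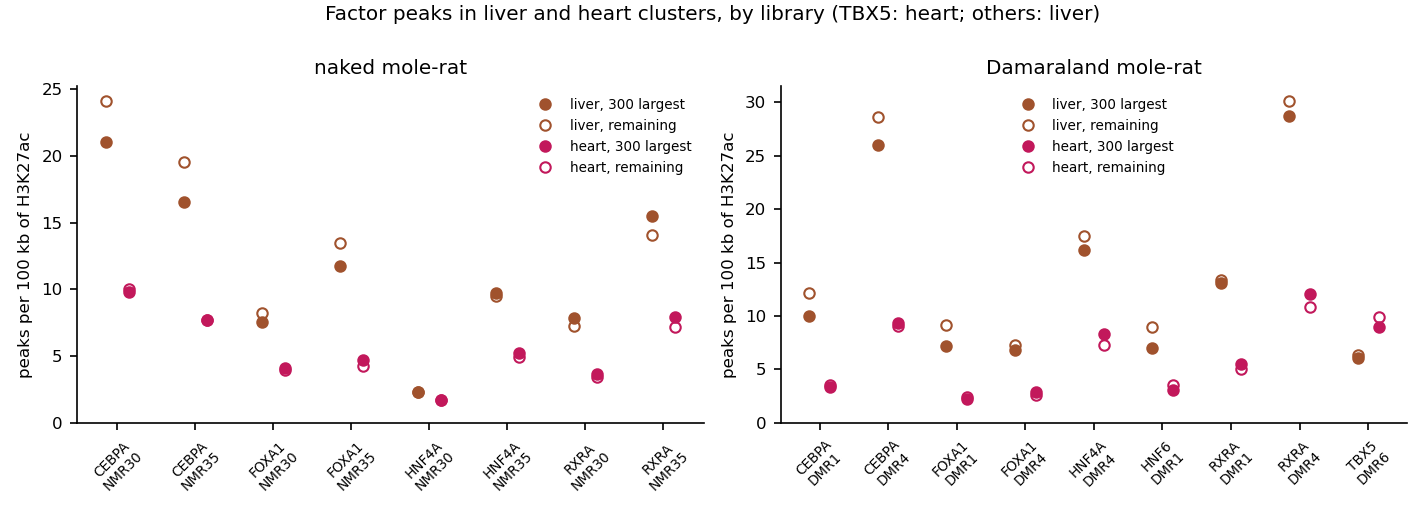
Peaks per 100 kb of H3K27ac for each factor library of the naked mole-rat (left) and the Damaraland mole-rat (right), with filled points for the 300 members, open points for the remaining clusters, liver clusters in brown and heart clusters in pink. The filled brown points lie above the filled pink points in all 16 liver libraries, and TBX5, the only heart library, shows the opposite order.

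Heart members nevertheless held many liver factor peaks. At least 1 peak of every liver factor, in either animal, was found in 169 of 300 naked mole-rat heart members (all clusters 4.22%). In the Damaraland mole-rat it was 112 of 300 heart members (all clusters 2.08%). Where both libraries of every factor had to hold a peak, 54 naked mole-rat heart members were left (remaining clusters 0.336%). For the 3 Damaraland factors with 2 animals it was 76 (remaining clusters 1.26%). These counts grow with cluster size. Per 100 kb of H3K27ac, heart members were near the remaining heart clusters. The medians over libraries were 4.96 against 4.60 in the naked mole-rat and 4.42 against 4.27 in the Damaraland mole-rat. The liver factor peaks of heart members lay largely where liver also carried H3K27ac. Of the peaks in naked mole-rat heart members, 37.3% (HNF4A of NMR30) to 73.5% (RXRA of NMR30) lay under liver H3K27ac, with a median of 60.6% over 8 libraries, although 29.8% of the members' bases did. In Damaraland mole-rat heart members it was 47.9% (HNF6) to 80.8% (RXRA of DMR4), with a median of 76.3%, against 32.2% of the bases. In liver members the share of the same peaks under heart H3K27ac was nearer to that of the bases, with a median of 32.5% against 33.7% in the naked mole-rat and 36.5% against 38.0% in the Damaraland mole-rat.

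TBX5 was measured in 1 heart library, of DMR6, so its values carry no replicate check and no test. DMR6, the female, gave no heart histone list, so the heart clusters came from other animals. Its liver H3K27ac list was among those that made the liver clusters. It gave 8.96 peaks per 100 kb in heart members and 9.91 in the remaining heart clusters, and 6.09 in liver members and 6.38 in the remaining liver clusters. The higher density in heart was thus not particular to the members. A peak was found in 277 of 300 heart members (all clusters 22.7%) and in 226 of 300 liver members (all clusters 15.6%). Of the TBX5 peaks in liver members 60.5% lay under heart H3K27ac, against 38.0% of the bases. Of those in heart members 35.6% lay under liver H3K27ac, against 32.2% of the bases.

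In naked mole-rat liver the largest cluster was JH167500.1:3073558-3274976, with 110505 H3K27ac bases in 51 regions over a span of 201419 bases. It also held the most factor consensus regions, 23, and single libraries placed 23 and 15 CEBPA peaks in it, 5 and 12 FOXA1, 2 and 5 HNF4A, and 9 and 18 RXRA (NMR30 and NMR35). Liver H3K27ac libraries covered 58.8% to 87.8% of its bases (median 73.5%), and the 3 heart libraries 15.0%, 18.2% and 19.4%. Its 2 followers, JH166354.1:437163-593459 and JH166391.1:3130544-3302582, held 80005 and 71615 bases, of which 29.2% and 10.8% lay under heart H3K27ac. The fourth, JH172949.1:703448-812637, held 65029 bases in 38 regions and was the largest with no base under any heart consensus, although 1 heart H3K4me3 library covered 0.637% of it, and it carried 17 factor consensus regions. The largest with at least 90% under heart H3K27ac was JH167641.1:642253-815952, ninth by size, with 55808 bases and 9 factor consensus regions. These 2 clusters also differed in single heart H3K27ac libraries: 0 in all 3 for the one, and 70.5% to 83.6% for the other.

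In naked mole-rat heart the largest cluster, JH167588.1:1483186-1635883, held 100664 bases in 44 regions. Heart libraries covered 78.6%, 85.0% and 86.7% of it and liver libraries 2.96% to 9.31%, and it held no factor consensus region. The next in size were of another kind. JH171544.1:1772527-1911274 held 96701 bases, of which 79.3% lay under liver H3K27ac, with 29 factor consensus regions, and JH173407.1:53071-215140 held 94354 bases with 32.1% under liver H3K27ac and 34 factor consensus regions, the most in any heart member of this species. The largest with no liver H3K27ac was JH167067.1:647879-740536, with 63561 bases and 1 factor consensus region. Only 3 members had at least 90% under liver H3K27ac, the largest being JH167922.1:529715-572931 at rank 221, with 23269 bases.

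In Damaraland mole-rat liver the largest cluster was also largely marked in heart. KN122326.1:6671657-6768947 held 79651 bases in 20 regions, the longest of them 26959 bases, and 88.0% of the bases lay under heart H3K27ac. Single heart libraries covered 32.0% to 81.6% of it (median 60.6%) and liver libraries 56.9% to 97.2% (median 73.2%). KN122489.1:1788692-1887100 and KN123330.1:2397398-2512880 followed with 67654 and 61422 bases, 38.7% and 0.475% of them under heart H3K27ac. The largest with no heart H3K27ac, KN122111.1:2639472-2708941, held 43987 bases and 15 factor consensus regions, as many as the largest cluster. KN122579.1:581076-651013, with 45015 bases, was the largest with at least 90% under heart H3K27ac (99.97%). The most factor consensus regions, 24, lay in KN124277.1:713687-812492, number 10 by size, with 52434 bases in 26 regions of which 5.74% lay under heart H3K27ac.

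The heart cluster with the most TBX5 peaks was also the largest of Damaraland mole-rat heart, KN121537.1:4928778-5087889, with 125309 bases in 38 regions and 18 TBX5 peaks. Heart libraries covered 49.4% to 88.2% of it and liver libraries 34.1% to 52.2%, and 55.4% of the bases lay under the liver consensus. It held 31 RXRA peaks of DMR4 and 24 HNF4A peaks of DMR4, the highest numbers of these libraries in any heart member. KN120606.1:4149824-4313092 held 88791 bases, with 28.5% under liver H3K27ac, and 7 TBX5 peaks. KN122666.1:322517-499419 held 87864 bases in 54 regions, 3 TBX5 peaks and no factor consensus region. A cluster on the same scaffold as the largest, KN121537.1:3142290-3256496, was the largest with no liver H3K27ac, with 59960 bases and 4 TBX5 peaks. The largest with at least 90% under liver H3K27ac, KN122228.1:6420811-6493516, stood at rank 170 with 29583 bases.

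**Figure D5:**
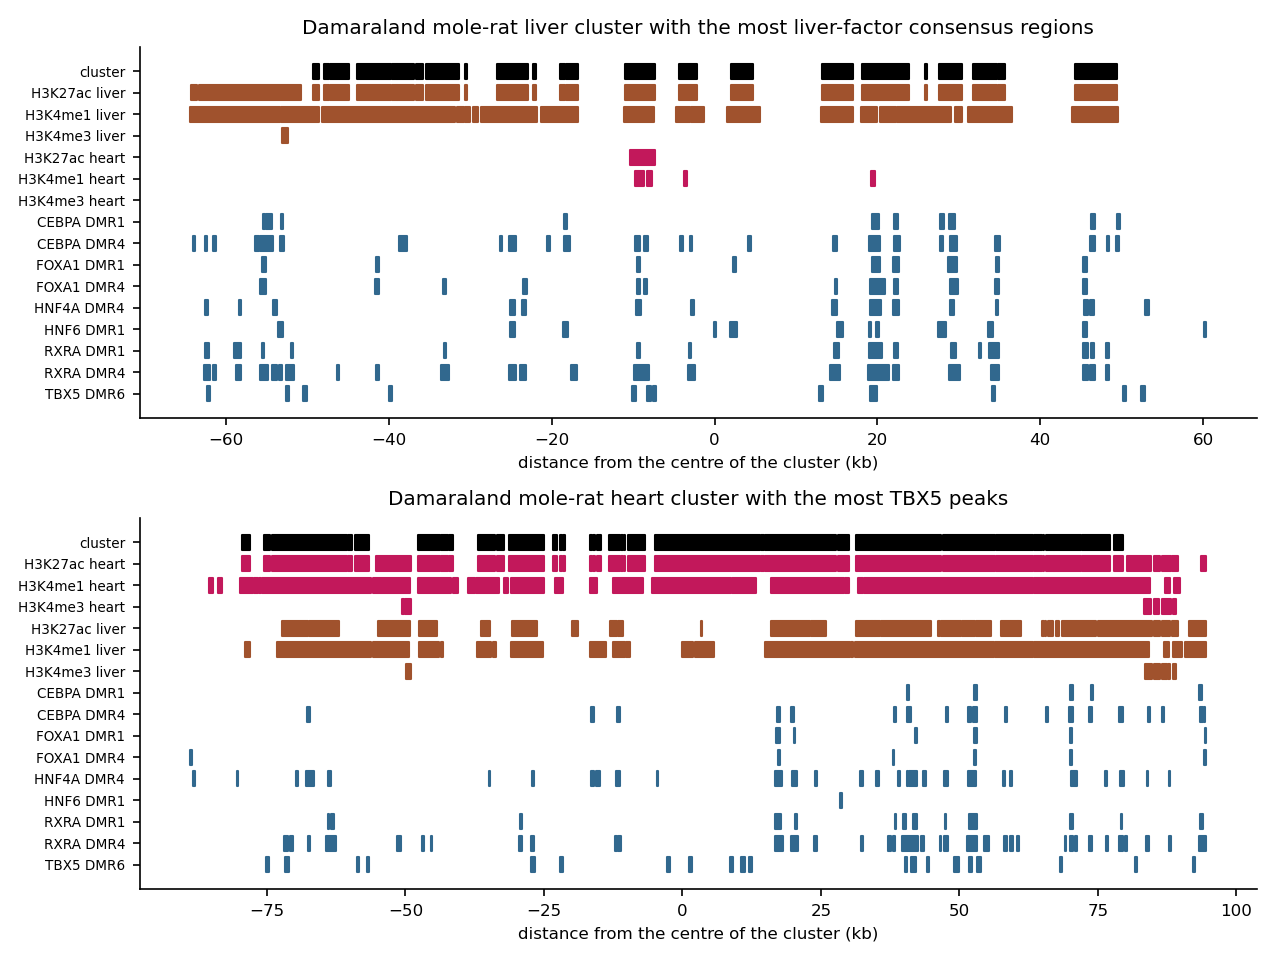
Map of 2 Damaraland mole-rat clusters by distance from the centre (kb): the liver member with 24 factor consensus regions (top) and the heart member with 18 TBX5 peaks (bottom). Black bars are the joined regions, brown and pink bars the liver and heart consensus of each mark, and blue bars the peaks of each factor library, and the liver member has almost no heart mark while liver H3K27ac covers 55.4% of the heart member.

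In guinea pig liver the largest clusters were DS562856.1:29208935-29369883, DS562894.1:10425201-10547704 and DS562887.1:7214934-7355035, with 103892, 86315 and 78811 bases and 43.5%, 27.5% and 39.4% under heart H3K27ac. All 3 overlapped heart members. The largest with no base under the heart H3K27ac consensus, DS562869.1:38845791-38932489, held 64170 bases at rank 12, of which 0.659% lay under heart H3K4me1. In heart the first 3 were DS562870.1:27094294-27234127, DS562856.1:48592872-48791455 and DS562865.1:39205798-39348847, with 94596, 92059 and 85593 bases and 56.1%, 28.8% and 23.4% under liver H3K27ac. The first of these overlapped the liver cluster DS562870.1:27093106-27188748, with 54994 bases the largest of its set with at least 90% of its bases (92.8%) under heart H3K27ac. In that liver cluster heart libraries covered 80.2% to 87.8% and liver libraries 72.0% to 94.4%. DS562866.1:4776096-4826498, the largest heart member with no liver H3K27ac, held 36111 bases, of which 3.21% lay under heart H3K4me1, far below the median member (79.3%). DS562873.1:39831054-39940006, with 43482 bases, was the largest heart member with at least 90% under liver H3K27ac.

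In mouse liver the largest cluster joined fewer regions than the median member (11), although the fewest in a member was 2. 15:58961232-59060144 held 87117 bases in only 4 regions, 1 of them 52252 bases long, and liver libraries covered 89.96% to 98.4% of it while the 6 heart libraries covered 8.62% to 34.2%. 2:27695236-27768672 and 2:167797719-167892215 followed with 67498 and 63901 bases, of which 47.8% and 63.3% lay under heart H3K27ac. The largest with no base under a heart consensus was 2:147926911-147999055, with 40316 bases, of which 1 heart H3K4me3 library covered 5.80%, and the largest with at least 90% under heart H3K27ac was 8:126802452-126888796, with 49306 bases. In mouse heart the largest cluster of all sets, 12:79722306-80105876, joined 83 regions over 383571 bases and held 169745 H3K27ac bases, of which 17.7% lay under liver H3K27ac. Heart libraries covered 35.3% to 85.6% of it and liver libraries 10.7% to 14.6%. 9:122018053-122205461 and 17:49982914-50200446 held 96436 and 94830 bases, with 40.5% and 2.89% under liver H3K27ac. 3:79891645-80009597, with 56380 bases, had none, and 2:167814851-167867664, with 36214 bases, had 96.2% and lay inside the liver cluster 2:167797719-167892215.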

How the data were processed

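Peak lists of single libraries were used. Peaks were called with MACS2, per the submitters' processing notes, while for the aligner nothing is given in the sources used here. The fold that the authors deposited is a linear ratio to background, the deposited −log10 p and −log10 q are the caller's, and the deposited score is a whole number the authors derived from q. Only positions, folds and q were used. Peaks of a library were merged, and a consensus region had to overlap a peak of another replicate by at least 50% of the shorter. Mouse sets used the 19 autosomes. Cover is the share of H3K27ac region bases under peaks, and factor peaks were counted by midpoint. Tests were two-sided exact permutation or sign-flip tests over libraries, adjusted by the Benjamini-Hochberg method at 0.05. Their p-values come from exchanging tissue labels or signs among these libraries. The factor tests took libraries of different factors from 2 animals of a species together. Livers and hearts of the mole-rats and guinea pigs pair by animal, as the labels name it.

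The members and lists were chosen with earlier results of these data known. Named clusters were the 3 largest of each set, the largest with no base and with at least 90% of bases under the other tissue's H3K27ac, the mole-rat liver cluster with most factor consensus regions and the Damaraland heart cluster with most TBX5 peaks. Planned gene lists for both tissues were not analysed here. The steps were tested on simulated intervals. SciPy 1.17.1, pandas 2.3.3 and NumPy 2.4.6 were used under Python 3.11.15.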

Additional observations from a re-analysis of the deposited data

Results flagged for a closer look

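Of 44 groups of 4 to 10 library values tested for a value set apart from the others, 6 held one, where chance gives about 1 in 20. In Damaraland mole-rat liver clusters, the heart H3K27ac library of DMR1 covered 3.07 points more of the members than of the rest, and the 4 other heart libraries 7.93 to 9.53 points more. In Damaraland mole-rat heart clusters, the heart H3K4me1 library of DMR11 gave an excess of 7.78 points, and the other 4 gave 14.8 to 16.5. The mouse heart pool, whose H3K4me1 list was the shortest, gave 1.89 points in liver clusters, where the others gave 5.53 to 6.86, and 4.15 points in heart clusters, where the others gave 12.3 to 14.4. In mouse heart clusters the liver H3K4me1 library of 85924, the longest liver list, gave 7.07 points and the other 3 gave 3.50 to 4.05. In the naked mole-rat the log2 ratio of HNF4A peaks per base between liver and heart members was 0.40 in NMR30 and 0.88 to 1.31 in the other 7 libraries.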

How the results depend on the processing

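The alternatives tried were a join distance of 5000 bases, an overlap of 1 base, at least 3 replicates, a −log10 q of at least 4, ranking by bases times fold, 100 clusters a set, H3K4me3 regions kept, scaffolds reaching 1 Mb, equal peak numbers, regions or clusters touched in place of bases, the replicate block, exchange within the library series, and each animal or factor library left out. The order below is naked and Damaraland mole-rat, guinea pig, mouse where several species are given, and the cause of a change was not tested unless said. The higher density of liver factor peaks in liver than in heart members kept an adjusted p under 0.05 in each alternative run for it, and the replicate block and the exchange within library series were run for H3K4me1 only. Of the 300 members, 113 to 143 a set had at least 50% of their span in a member with the join distance of 5000 bases, 210 to 273 with ranking by bases times fold, 167 to 220 with H3K4me3 regions kept, and 214 to 300 with 1 animal left out.

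The H3K4me1 difference between tissues in liver members lost its call with the replicate block in both mole-rats (44.3 and 46.6 points), where too few pairs are left to pass, and within library series in naked mole-rat, Damaraland mole-rat and mouse (43.1, 45.1 and 35.2 points). The replicate block changed no other H3K4me1 call, and no paired analysis was possible in the mouse because no animal gave both tissues. With 1 animal left out, the differences were 41.9 to 51.3 points in naked mole-rat liver members, 27.9 to 36.7 in mouse liver members, -0.413 to 16.3 in naked mole-rat heart members and 8.31 to 19.4 in Damaraland mole-rat heart members. Leaving out any 1 naked mole-rat liver or heart with an H3K4me1 library, or any 1 such mouse heart, lost the call in liver members. Fewer samples were then left, and adjusted p values were 0.0571 to 0.127 by the exact permutation test.

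The excess of H3K4me1 in the own tissue over the remaining clusters passed in more sets than as reported. With a join distance of 5000 bases it was 5.55 and 6.53 points in mole-rat hearts, 5.45 in Damaraland mole-rat liver and 7.67 in mouse heart. With ranking by bases times fold it was 5.77 in naked mole-rat heart, 6.15 in Damaraland mole-rat liver, and 5.72 and 6.70 in mouse liver and heart. With H3K4me3 regions kept it was 5.05 and 7.05 in liver and heart of the naked mole-rat, 6.503 and 7.11 of the Damaraland mole-rat, and 4.53 and 10.2 of the mouse. With equal peak numbers it was 5.46 and 6.23, 8.90 and 7.03, and 5.15 and 9.08 in the same sets. With regions touched it passed in the mole-rat hearts (6.72 and 6.60) and was -7.99, -5.38, -2.09 and -2.41 in the livers of the 4 species, and the first 2 of these passed in the opposite direction (exact permutation, adjusted p = 0.0357 and 0.0317). In naked mole-rat liver it was also negative with 100 clusters (-0.282) and within library series (-0.428), and ran from -1.32 to 1.95 with 1 animal left out.

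The excess of the other tissue's H3K27ac turned negative in mouse liver clusters with a join distance of 5000 bases (-0.239 points) and with ranking by bases times fold (-2.91). With H3K4me3 regions kept it was -4.28 in naked mole-rat heart, -0.0427 in Damaraland mole-rat liver, -1.68 and -1.50 in guinea pig liver and heart, and -7.03 in mouse liver. The log2 ratio of factor peaks per base between liver members and the rest was 0.091 (naked mole-rat) and -0.0052 (Damaraland mole-rat) with ranking by bases times fold, 0.11 and -0.079 with H3K4me3 regions kept, and -0.18 in the Damaraland mole-rat with equal peak numbers, and the Damaraland call was lost under all 3. Measured as the share of clusters with a peak, the log2 ratio was 2.17 and 1.75, and passed in both as higher in members.

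The median over sets of the median size was 19005 bases with a join distance of 5000 bases, 22445 with at least 3 replicates, 24108 with the higher q, 38478 with 100 clusters and 39477 with H3K4me3 regions kept. The share of members with any H3K27ac in the other tissue, 88.25% as reported, was 81.0%, 82.7%, 84.75%, 91.5% and 95.4% under the same settings and 85.2% with ranking by bases times fold.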
